A study of Mus musculus with 8 samples.

Results

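The genes described here are those of the desmosome and of the plakin linkers that tie it to keratin filaments. They were chosen by symbol from a list of 10 genes (Jup, Dsp, Dsg2, Dsc2, Pkp1, Pkp2, Pkp3, Pkp4, Ppl and Evpl), of which 9 were found among the 18671 genes of the table and Dsc2 was not analysed here. RNA was measured by sequencing in BMEL cells, a bipotential line derived from embryonic mouse liver, in 8 samples. The comparison asks which transcripts differ when the transcription factor GRHL2 is supplied to these cells. In 4 samples (labelled pIGrhl2, GRHL2 samples below) the cells had received a plasmid with a human GRHL2 cDNA fused to a Flag tag, driven by the EEF1A1 promoter and followed on the same transcript by enhanced green fluorescent protein. In the other 4 samples (labelled pcDNA, control samples below) they had received the pcDNA3 vector, and all 8 were harvested 48 h after transfection. Both groups were grown on collagen in the same RPMI medium with serum, EGF, insulin and IGFII. The plasmids differ by the fluorescent protein as well as by GRHL2. All samples come from 1 line, and the share of cells that took up a plasmid is not given in the sources used here. The study calls its replicates biological and independent, while the labels give only the replicate numbers 1 to 4.

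Desmosomes are spot-like junctions that hold epithelial cells together and bear mechanical load. Desmosomal cadherins (desmogleins and desmocollins) meet across the gap between cells, their tails bind the armadillo proteins plakoglobin and plakophilin, and these bind desmoplakin, a plakin that grips the keratin filaments. Hepatocytes and bile duct cells, the descendants of the embryonic liver cells modelled by this line, are joined by desmosomes and carry keratins 8 and 18, and grainyhead-like factors such as GRHL2 are known as regulators of epithelial junction genes.

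The values are on a log2 scale, read as regularized logarithms (rlog) of read counts less the log2 of transcript length, so levels are per length and a difference of 1 is a doubling. The rlog pulls differences between samples of genes with few reads towards 0, so differences of low genes are understated, and the read depth of the samples cannot be read from such values. In bulk RNA, fewer cells that express a gene and less RNA per cell cannot be told apart. The Grhl2 row was first checked against the labels. Its value was 4.68, 4.57, 4.42 and 4.44 in control replicates 1 to 4 and 6.30, 6.96, 5.65 and 6.05 in GRHL2 replicates 1 to 4. All GRHL2 samples lay above all control samples, and the difference was 1.71 (SE 0.22, limma adjusted p = 0.00100). The plasmid codes for the human protein and the reads were aligned to the mouse genome, so plasmid reads and reads from the cells' own gene cannot be told apart in this row.

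Among the 9 genes, 3 were called higher in the GRHL2 samples and 1 lower at an adjusted p under 0.05 (limma, adjusted over all 18671 genes), where 10.5% of all genes were called higher and 5.91% lower (16.4% in either direction). The 3 higher genes were Jup, Pkp1 and Pkp3, all armadillo proteins of the plaque, and the lower one was Dsp, the plakin that joins the plaque to keratin. The other armadillo genes of the list, Pkp2 and Pkp4, had differences of -0.099 and -0.21. Both were lower in 4 of 4 same-numbered pairs. Dsg2, Pkp2, Pkp4, Ppl and Evpl did not pass the test. The values of the 2 groups did not overlap for the same 3 genes in the higher direction, against 14.3% of all genes, and for Dsp and Pkp4 in the lower direction, against 9.47% of all genes (23.8% in either direction). The median difference over the 9 genes was 0.038, which is the value of Ppl, beside 0.0066 over all genes. With the samples set to an equal median these were 0.0073 and -0.024. With the replicate number as a block, 4 of the 9 were called higher and 2 lower, where 18.2% and 13.9% of all genes were called (32.1% in either direction), and the genes added were Evpl and Pkp4.

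**Figure D1:**
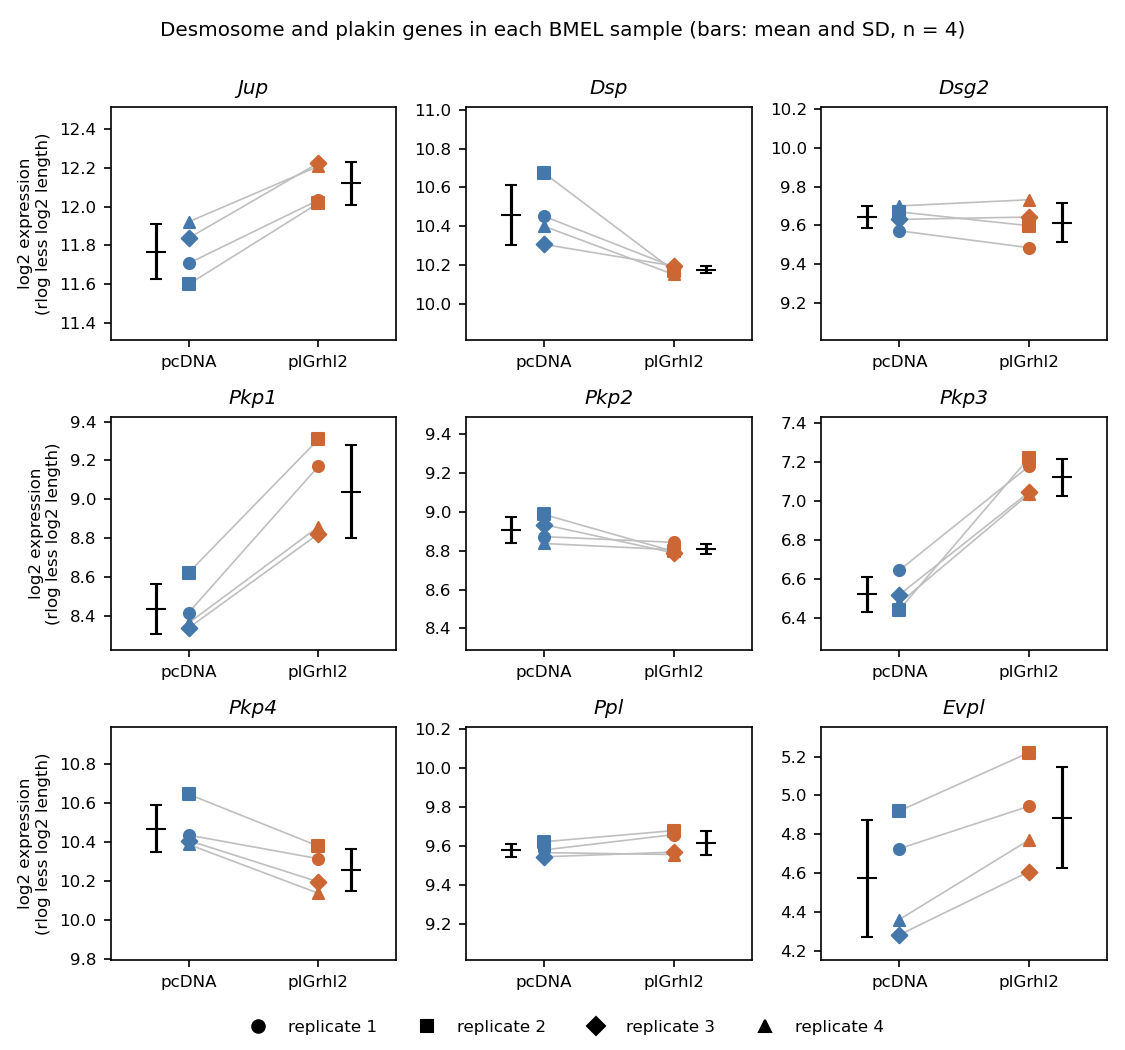
Log2 expression (rlog less log2 transcript length, vertical axis) of the 9 genes in each of the 4 control (pcDNA) and 4 GRHL2 (pIGrhl2) samples, 1 point a sample, with the group mean as a bar. The GRHL2 points lie apart above the control points for Jup, Pkp1 and Pkp3 and apart below them for Dsp and Pkp4. The groups overlap for the other 4 genes, in Pkp2 only between the highest GRHL2 and the lowest control point.

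In the control samples the per-length levels of the 9 genes spanned from Evpl at 4.57 ± 0.30 (SD, n = 4) to Jup at 11.77 ± 0.14. The level of Jup was above that of 97.2% of the genes in the table and that of Evpl above 38.9%. Pkp4 (10.47 ± 0.12) and Dsp (10.46 ± 0.16) came next after Jup, with overlapping values, followed by Dsg2 (9.64 ± 0.055) and Ppl (9.58 ± 0.033), which also overlapped. Pkp2 (8.91 ± 0.066), Pkp1 (8.44 ± 0.13) and Pkp3 (6.52 ± 0.089) followed, each apart from its neighbours in all 4 control samples. This order was the same in the GRHL2 samples except for Pkp1 and Pkp2. Pkp2 lay 0.47 above Pkp1 in the mean of the control samples and 0.23 below it in that of the GRHL2 samples (log2 difference of Pkp2 less Pkp1, -0.23), where the values of the 2 genes overlapped.

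Dsg2, the desmoglein found in simple epithelia such as liver, was the 1 desmosomal cadherin of the list with values. Its values were 9.57, 9.67, 9.63 and 9.70 in control replicates 1 to 4 and 9.49, 9.60, 9.64 and 9.73 in GRHL2 replicates 1 to 4. The groups overlapped, 2 of 4 same-numbered pairs were higher and 2 were lower, and the difference was -0.028 (95% interval -0.16 to 0.10, limma adjusted p = 0.789). Of the other desmosomal cadherins, Dsg3, Dsg4 and Dsc3 had values, and none of these 3 was called in either direction in the fit without the block. Dsg3 (difference 0.098, limma adjusted p = 0.0990) was called higher with the replicate block (0.0388), and 1 of the 3 genes was called higher with an equal upper quartile, with an equal sum and without GRHL2 replicate 4. Dsg3, Dsg4 and Dsc3 are cadherins of stratified epithelia and hair, and their control means were 0.21, -1.12 and -0.56, near the low end of a table that runs from -2.85 to 18.01. Dsg1a, Dsg1b, Dsg1c and Dsc1 were not analysed here. Exons of Dsg2 share 330 of their 8268 bases (3.99%) with those of Gm16090 on the opposite strand, and counting disregarded strand, so reads there cannot be assigned to one of them.

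Jup encodes plakoglobin (γ-catenin), an armadillo protein that binds the tails of desmosomal cadherins and can also take the place of β-catenin at adherens junctions. Its values were 11.71, 11.60, 11.84 and 11.92 in control replicates 1 to 4 and 12.03, 12.02, 12.22 and 12.21 in GRHL2 replicates 1 to 4. Every GRHL2 sample was above every control sample. Jup rose by 0.35 (SE 0.078, 95% interval 0.18 to 0.53, limma adjusted p = 0.0134), which is 27.8% on the linear scale, and the rise in the 4 same-numbered pairs ran from 0.29 to 0.42. With each sample left out in turn the adjusted p ran from 0.0109 to 0.0441, and over all settings tried from 0.000135 to 0.0441. Ctnnb1, which encodes its close relative β-catenin, stood higher in level (14.25 ± 0.10 in the control samples). Its difference was 0.10 (limma adjusted p = 0.464, or 0.0370 with the replicate block), higher in 4 of 4 pairs. The Jup less Ctnnb1 level differed by 0.25 between the groups, with an exact two-sided permutation p of 0.0286, the smallest that 4 against 4 samples can give, and 0.0571 after Benjamini-Hochberg adjustment over 6 such gene pairs.

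The plakophilins are armadillo proteins that cluster desmosomal cadherins and desmoplakin laterally. Pkp1, best known from the upper layers of skin, had values of 8.42, 8.62, 8.34 and 8.36 in control replicates 1 to 4 and 9.17, 9.31, 8.82 and 8.86 in GRHL2 replicates 1 to 4. The groups did not overlap, and in both of them replicate 2 was the highest and replicate 3 the lowest. Pkp1 rose by 0.60 (SE 0.11, 95% interval 0.35 to 0.85, limma adjusted p = 0.00602), a 1.52-fold difference, and was higher in 4 of 4 pairs by 0.48 to 0.75. Only 129 of the 18671 genes had a larger difference upwards.

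Pkp3, a plakophilin of most layers of stratified and simple epithelia, lay lower in level. Its values were 6.65, 6.44, 6.52 and 6.48 in control replicates 1 to 4 and 7.18, 7.22, 7.05 and 7.04 in GRHL2 replicates 1 to 4. The groups were apart by more than the range within either one. Pkp3 rose by 0.60 (SE 0.062, 95% interval 0.46 to 0.74, limma adjusted p = 0.000313), again a 1.52-fold difference, with 0.53 to 0.78 in the 4 pairs. The smaller SE of Pkp3 than of Pkp1 goes with the spread of the GRHL2 samples, whose SD was 0.094 for Pkp3 and 0.24 for Pkp1. The Pkp1 less Pkp3 level differed by 0.0026 between the groups (exact permutation p = 0.914, unchanged by the adjustment over 6 gene pairs), and by -0.053 (without GRHL2 replicate 2) to 0.091 (without control replicate 2) with 1 sample left out.

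Pkp2, the plakophilin of heart and of simple epithelia, had values of 8.87, 8.99, 8.93 and 8.84 in control replicates 1 to 4 and 8.84, 8.80, 8.79 and 8.80 in GRHL2 replicates 1 to 4. The groups overlapped only between the lowest control sample and the highest GRHL2 sample. Its difference of -0.099 (95% interval -0.20 to 0.0052) did not pass the test (limma adjusted p = 0.181, or 0.102 with the replicate block), although it was lower in 4 of 4 pairs. Against Pkp3, the Pkp2 level differed by -0.70 between the groups (exact permutation p = 0.0286, adjusted over 6 gene pairs 0.0571).

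Pkp4, also called p0071, is the plakophilin relative that sits at both desmosomes and adherens junctions. Its values were 10.44, 10.65, 10.41 and 10.39 in control replicates 1 to 4 and 10.31, 10.38, 10.20 and 10.14 in GRHL2 replicates 1 to 4. The highest GRHL2 sample lay just under the lowest control sample, and the difference was -0.21 (SE 0.073, 95% interval -0.38 to -0.049), lower in 4 of 4 pairs. It missed the threshold in the fit without the block (limma adjusted p = 0.0757) and passed it with the block (0.00273) and with sample weights (0.0389), within a range of 0.00273 to 0.180 over all settings tried. The Pkp4 less Pkp3 level differed by -0.81 (exact permutation p = 0.0286, adjusted 0.0571).

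Put on the linear scale and summed, the per-length levels of the 4 plakophilins were between 2216 and 2591 units in the control samples and between 2169 and 2560 in the GRHL2 samples, so the sums overlapped. Pkp4 made up 60.7% ± 0.81 (SD, n = 4) of this sum in the control samples and 52.3% ± 0.68 in the GRHL2 samples. The share of Pkp1 was 14.8% ± 0.38 and 22.5% ± 1.91, and that of Pkp3 3.95% ± 0.42 and 5.96% ± 0.098. For these 3 genes the shares of the 2 groups did not overlap. Pkp2 held 20.6% ± 0.84 in the control samples and 19.2% ± 1.46 in the GRHL2 samples, with overlapping values. Shares of one sum are tied to each other, so a larger share of Pkp1 lowers the rest, and no test was run on them.

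**Figure D2:**
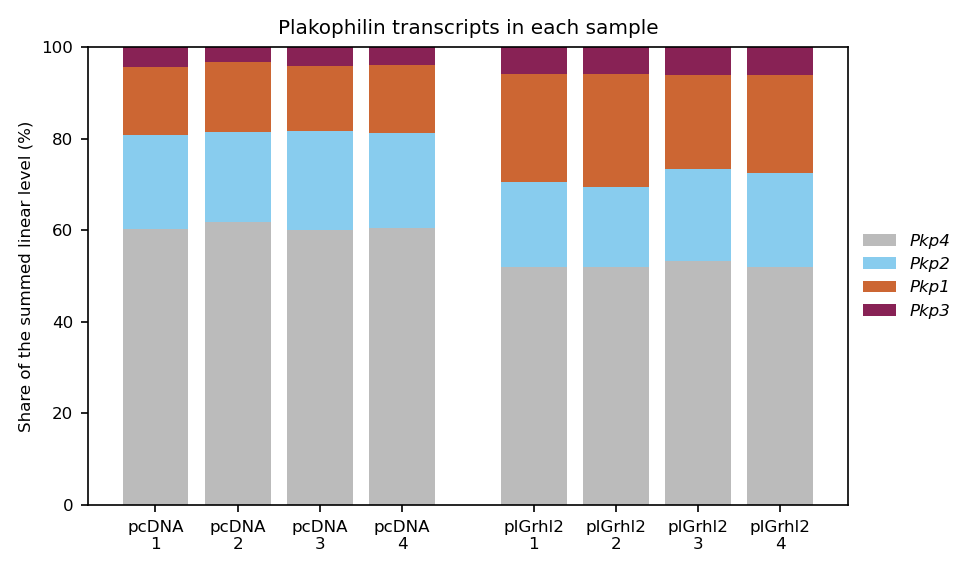
Share in percent (vertical axis) of each plakophilin in the summed linear per-length level of the 4 genes, 1 stacked bar for each of the 4 control (pcDNA) and 4 GRHL2 (pIGrhl2) samples. The Pkp4 part averages 60.7% in the control samples and 52.3% in the GRHL2 samples, and the Pkp1 part 14.8% and 22.5%, without overlap between the groups for either gene.

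Dsp encodes desmoplakin, the plakin without which the plaque has no hold on keratin filaments. Its values were 10.45, 10.67, 10.31 and 10.40 in control replicates 1 to 4 and 10.19, 10.17, 10.20 and 10.15 in GRHL2 replicates 1 to 4. All GRHL2 samples were lower than all control samples, and the GRHL2 samples were closer together (SD 0.020) than the control samples (SD 0.16). Dsp fell by 0.28 on the log2 scale (SE 0.072, 95% interval for the difference -0.44 to -0.12, limma adjusted p = 0.0253), a fold of 0.823, and was lower in 4 of 4 pairs by between -0.50 in replicate 2 and -0.11 in replicate 3. The call was lost when control replicate 1 (limma adjusted p = 0.0630) or GRHL2 replicate 1 (0.0556), 3 (0.0525) or 4 (0.0606) was left out, and it was kept without each of the other 4 samples. Over all settings tried the adjusted p ran from 0.00620, with the replicate block, to 0.0630, and the difference from -0.33 to -0.21. Exons of Dsp share 499 of their 9659 bases (5.17%) with those of Gm10129 on the opposite strand. Plec, which encodes plectin, a cytolinker of the same family, had a difference of -0.22 (limma adjusted p = 0.154, or 0.00901 with the block), lower in 4 of 4 pairs. The Dsp less Plec level differed between the groups by -0.056 (exact permutation p = 0.543, adjusted over 6 gene pairs 0.651). It ran from -0.094 without GRHL2 replicate 4 to 0.0027 without GRHL2 replicate 2, and was -0.0057 without control replicate 1.

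Jup and Dsp, partners in the plaque, moved in opposite directions. The level of Jup less that of Dsp was 1.31 ± 0.28 (SD, n = 4) in the control samples and 1.94 ± 0.11 in the GRHL2 samples. On the linear scale this is a ratio of 2.48 and of 3.84. The ratio was formed after the values of both genes had been seen, and it was not tested.

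**Figure D3:**
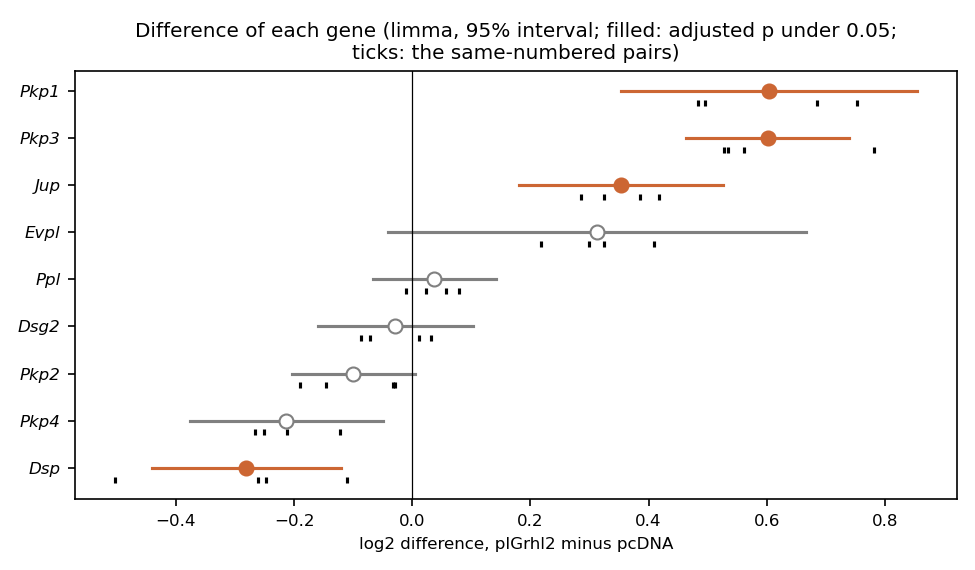
Log2 difference, GRHL2 less control samples (horizontal axis), for each of the 9 genes, with the 95% interval of the limma fit as a line, the estimate as a point (filled where the adjusted p is under 0.05) and the 4 same-numbered pairs as ticks. Every pair lies above 0 for Pkp1, Pkp3, Jup and Evpl and below 0 for Pkp2, Pkp4 and Dsp, while the pairs of Ppl and Dsg2 lie on both sides.

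The bases ahead of the start sites of Jup and Dsp are shown because these genes of one structure were called in opposite directions. Of the members, Jup, Dsp and Pkp4 were found in the RefSeq promoter windows of GRCm38.p6, each of which holds 250 bases before and 50 bases after an annotated start. The 250 bases before the start, 5′ to 3′ on the strand of the gene, are given with the GC box (GGGCGG, searched on both strands) in capitals, at chr11:100397791-100398040 on the minus strand for Jup and chr13:38151044-38151293 on the plus strand for Dsp.
Jup: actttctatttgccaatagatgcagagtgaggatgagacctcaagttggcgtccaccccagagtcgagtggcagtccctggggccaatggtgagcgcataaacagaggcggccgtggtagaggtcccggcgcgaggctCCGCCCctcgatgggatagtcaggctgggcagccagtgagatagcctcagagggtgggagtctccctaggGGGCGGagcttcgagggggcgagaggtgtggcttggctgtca
Dsp: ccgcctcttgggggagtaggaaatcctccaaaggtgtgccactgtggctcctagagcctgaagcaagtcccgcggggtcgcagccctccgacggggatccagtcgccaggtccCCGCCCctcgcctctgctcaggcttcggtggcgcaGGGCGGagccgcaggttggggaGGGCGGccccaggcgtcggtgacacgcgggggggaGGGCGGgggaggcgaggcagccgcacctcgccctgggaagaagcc

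The GC box, known as the element bound by Sp factors, begins at -112 and -42 from the start of Jup and at -137, -102, -80 and -45 from that of Dsp, and GC content was 62.0% and 72.4% in the bases shown. A GC box occurs in 35.7% of the 32851 windows of this length, so its presence is common. The letters AACCNGTT, the consensus known for grainyhead-like factors, were also searched on both strands and occur in 2.09% of the windows, but not in those of Jup, Dsp or Pkp4. The E-box CACCTG, known for ZEB and SNAIL factors and searched in the same way, occurs in 20.2% of the windows, beginning 4 bases past the start of Dsp, and not in that of Jup. It also occurs in the second of 2 Pkp4 windows, whose start was not matched to a GENCODE transcript of the gene. The 3 motifs share no position with each other in the windows of these genes. These are matches of letters within 300 bases, and other sequence around the genes was not searched.

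Periplakin and envoplakin are plakins that can pair with each other, bind keratin and, in skin, form the first scaffold of the cornified envelope. Ppl had values of 9.58, 9.62, 9.54 and 9.56 in control replicates 1 to 4 and 9.66, 9.68, 9.57 and 9.55 in GRHL2 replicates 1 to 4. The groups overlapped, 3 of 4 pairs were higher, and the difference of 0.038 (95% interval -0.066 to 0.14) did not pass the test (limma adjusted p = 0.632). It ran from 0.016 without GRHL2 replicate 2 to 0.057 without GRHL2 replicate 4, was 0.023 without GRHL2 replicate 1, and was 0.0073 with an equal median and 0.062 with an equal sum. Evpl had the lowest level of the 9 genes, with values of 4.73, 4.92, 4.28 and 4.36 in control replicates 1 to 4 and 4.94, 5.22, 4.61 and 4.77 in GRHL2 replicates 1 to 4. The groups overlapped, since replicates 1 and 2 were higher than replicates 3 and 4 in both, while every GRHL2 sample was above the control sample of the same number. The Evpl difference was 0.31 (SE 0.16, 95% interval -0.040 to 0.67, limma adjusted p = 0.210), with 0.22 to 0.41 in the 4 pairs and an adjusted p of 0.000629 with the replicate block. The difference was 0.20 without GRHL2 replicate 2 and 0.43 without control replicate 2, the ends of its range. Over all settings tried its adjusted p ran from 0.000629 to 0.404, and the block was the 1 alternative of 18 in which it was called. The Ppl less Evpl level differed by -0.28 between the groups (exact permutation p = 0.2, adjusted over 6 gene pairs 0.3), and by -0.38 (without control replicate 2) to -0.19 (without GRHL2 replicate 2) with 1 sample left out.

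**Figure D4:**
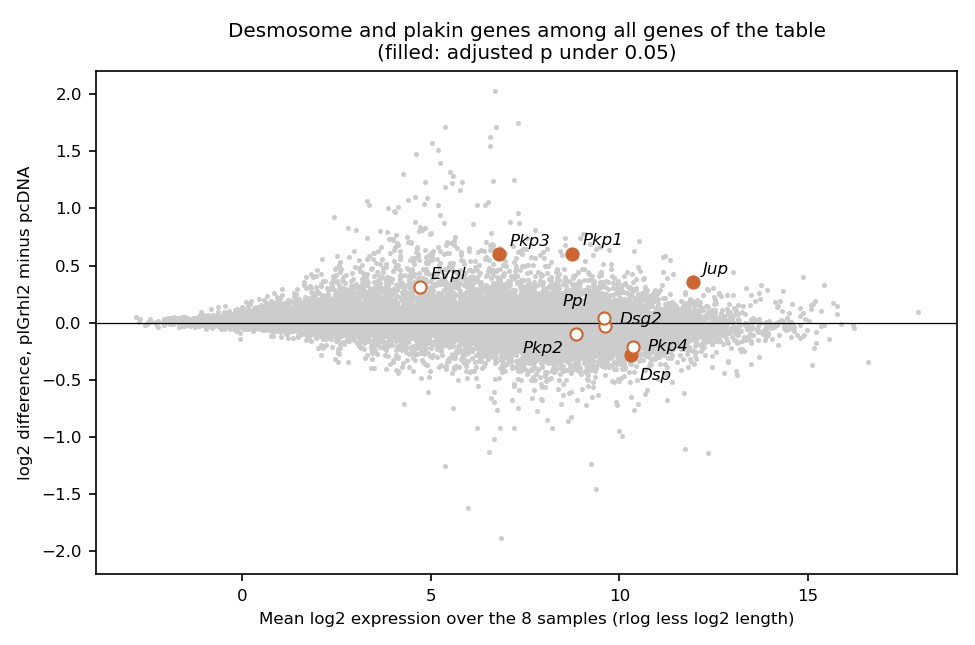
Log2 difference between GRHL2 and control samples (vertical axis) against the mean log2 expression over the 8 samples (horizontal axis) for all 18671 genes in grey, with the 9 desmosome and plakin genes in orange, filled where the limma adjusted p is under 0.05. Jup, Pkp1 and Pkp3 lie in the upper edge of the cloud at their levels, Dsp in the lower part, and Dsg2 and Ppl close to 0.

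The genes around the desmosome were taken from lists made by function, which together hold 47 symbols, 41 of them with values. These lists were chosen with earlier results of these data known, so their counts are descriptions and not an independent test. Of the 41 genes, 14 were called higher and 1 lower (limma, adjusted p under 0.05), and the median difference was 0.10, where 10.5% of all genes were called higher and 5.91% lower. The count of higher genes was 8 when the samples were set to an equal median and 9 without control replicate 3. In the desmosome-associated list (5 of 5 with values) 3 were called higher, Perp, a membrane protein of desmosomes (0.18, adjusted p = 0.0329), Kazn, a desmosome partner of periplakin (0.36, adjusted p = 0.000871), and Ctnnd1, the p120 catenin of adherens junctions (0.21, adjusted p = 0.0393). Only 1 of the 5 was called higher with an equal median, or without control replicate 2, 3 or 4 or GRHL2 replicate 1 or 3. In the same list Pnn, named for desmosomes but known mainly as a nuclear splicing protein, fell by 0.52 (limma adjusted p = 0.0157). The other plakins Plec, Dst and Macf1 had a median difference of -0.22 and none passed the test, whereas 2 of the 3, Plec and Dst (limma adjusted p = 0.0267 for Dst), were called lower with the replicate block.

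Keratins are the filaments that desmosomes hold, and 2 of 8 were called higher, Krt7, a keratin of bile duct cells (0.44, limma adjusted p = 0.00201), and Krt5 (0.12, adjusted p = 0.0264). The count was 1 with an equal median and without control replicate 3 or 4, and 3 with the replicate block, sample weights, an equal upper quartile or an equal sum. Over all genes, 10.5% were called higher in the fit reported and 18.2% with the block. Of the 18671 genes, 1119 were called higher with an equal median, 3064 with an equal upper quartile and 2912 with an equal sum. The gene added by the block was Krt19 (0.16, limma adjusted p = 0.0732, or 0.0109 with the block), higher in 4 of 4 pairs. Krt5 had a low level (2.25 ± 0.040 in the control samples, above 22.6% of the genes in the table), while Krt8 and Krt18, the keratins of hepatocytes, stood at 15.31 ± 0.089 and 14.76 ± 0.081 and had differences of 0.099 and 0.060 that did not pass the test. Of the cornified envelope genes that work with envoplakin and periplakin in skin, 7 of 8 had values and 5 were called higher (3 with an equal median), with a median difference of 0.26. Ivl, which encodes involucrin, rose by 1.22 (from 4.95 ± 0.049 to 6.17 ± 0.12, limma adjusted p = 7.7e-06). The other 4 were Tgm5 (0.36), Tgm1 (0.27), Lor (0.17) and Sprr2a1 (0.10), each at a control mean under 4.

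In the hemidesmosome, the junction to the basement membrane that shares plectin with desmosomes, 2 of 4 genes were called higher, Itga6 (0.13, limma adjusted p = 0.0447) and Col17a1 (0.25, adjusted p = 0.00418). The count was 1 with an equal median and without any single sample except control replicate 2. In the adherens junction list 3 of 12 were called higher and none lower, Cdh1, which encodes E-cadherin (0.29, limma adjusted p = 0.0199), Nectin1 (0.57, adjusted p = 0.000460) and Ctnnd1. In that list 1 was called higher without control replicate 1 or GRHL2 replicate 3 or 4, and 5 higher and 2 lower with the replicate block. With the block the counts over the 41 genes were 20 higher and 5 lower, where 18.2% of all genes were called higher and 13.9% lower. Without the block, 10.5% of all genes were called higher and 5.91% lower.

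**Figure D5:**
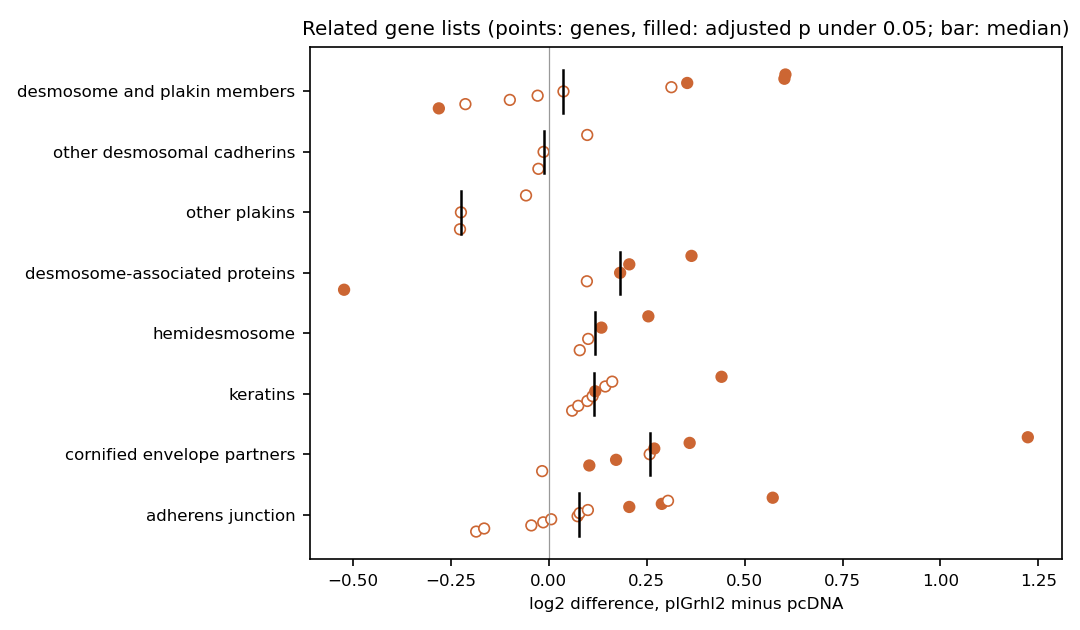
Log2 difference, GRHL2 less control samples (horizontal axis), of each gene of the desmosome and plakin genes and of 7 lists of related genes, 1 row a list, filled where the limma adjusted p is under 0.05, with the list's median as a bar. The medians run from -0.22 in the other plakins to 0.26 in the cornified envelope partners, and Ivl, at 1.22, lies farthest to the right.

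The cells were checked against markers. Of 9 hepatoblast markers 8 had values, and Krt19 (15.05 ± 0.12 in the control samples) and Hnf4a (11.16 ± 0.078) were high, while Alb was at 5.25 ± 0.17. Among markers of other cells that might be in the culture, Vim, Pdgfrb and Krt5 were called, where 16.4% of all genes were called in either direction. Vim, also made by many cultured epithelial lines, fell by 0.37 (limma adjusted p = 0.000614), and the log2 of the summed level of the 5 mesenchymal markers with values was between 15.23 and 15.39 in the control samples and between 14.88 and 15.00 in the GRHL2 samples. Vim makes up nearly all of this sum, and the median difference of the 5 markers was -0.013. Acta2, Pdgfrb, Des and Col1a1 stood at 0.80, -0.23, 3.50 and 5.22 in the control samples, no marker of this list was at the bottom value of the table, and Pdgfrb was called higher by 0.11. Col1a1 had a difference of 0.13 and was higher in 4 of 4 pairs (limma adjusted p = 0.333 unpaired and 0.0281 blocked). The part of these markers in the differences of Jup, Pkp1, Pkp3 and Dsp was not tested. None of the 4 endothelial markers and neither of the 2 macrophage and blood markers with values was called without the block, with Cdh5 at 1.23 and Ptprc at 0.90 in the control samples. With the replicate block Kdr (difference 0.13, limma adjusted p = 0.0411), Tek (0.093, adjusted p = 0.0234) and Cd68 (0.16, adjusted p = 0.0205) were called higher. The block called 18.2% of all genes higher, and the control means of Kdr, Tek and Cd68 were 2.31, 1.63 and 6.08. Of the keratinocyte markers 6 of 7 had values, with Krt14 at 8.18 ± 0.21, Krt10 at 5.51 and Krt1 at -0.29 in the control samples. Krt5 was the 1 of them called (higher), or Krt5 and Dsg3 with the block, and the log2 of their summed level, to which Krt14 gave the most, was 8.18 to 8.59 in the control samples and 8.27 to 8.74 in the GRHL2 samples.

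Over the 8 samples, the genes with values most like those of Jup were Igsf9 (Pearson's r 0.996), Plekha2 (0.996) and Acox2 (0.994). Those most like Dsp were Ubr4 (0.992), Dnajc13 (0.991) and Pogz (0.991), and those most like Ppl were 2610020C07Rik (0.985), Cry1 (0.984) and 5031439G07Rik (0.981). These are descriptions over 8 samples that share their groups, replicate numbers and scaling, picked as the highest among all other genes of the table.

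In the GENCODE M21 annotation of GRCm38 the genes with values lie on several chromosomes. Jup (chr11:100368958-100397763) and Evpl (chr11:116220559-116238077) lie on the minus strand of one chromosome, and Pkp2 (chr16:16213318-16272712, plus strand) and Ppl (chr16:5086291-5132421, minus strand) on another. Dsp lies at chr13:38151294-38198577, Pkp3 at chr7:141078218-141090510 and Pkp4 at chr2:59160850-59355208, all on the plus strand, and Pkp1 at chr1:135871395-135919207 on the minus strand. Values are per gene over all its exons, so isoforms and UTRs were not separated.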

How the data were processed

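Total RNA of 8 BMEL samples was sequenced (paired-end) and 1 table of 18671 genes by symbol was used. The submitters' processing notes name HISAT2 2.2.1, HTSeq 0.9.1, DESeq2 1.40.2, mm10 and GRCm39. According to the methods, exon counts were taken without strand, genes under 10 cumulated reads were removed, and rlog values were divided by the mean transcript length. That account opens with public data and was assumed to cover these samples. The values deposited by the authors are log2 values, although the table is named for FPKM: 4.81% of them are below 0, and the 1st percentile of genes grouped by length moved by 2.47 as given and by 0.098 after the log2 GENCODE M21 length was added. Depth is unknown.

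Groups and replicate numbers came from the sample labels. All genes were fitted with limma 3.58.1 in R 4.3.3 (2 groups, mean-variance trend, Benjamini-Hochberg adjustment, threshold 0.05), with no added pseudocount, although linear FPKM had been planned for. Gene pairs were compared by exact permutation with scipy 1.17.1. Samples with the same number deviated together from their group means (Pearson's r 0.474 to 0.645 across genes, mean 0.558), which meets the rule used to treat the numbers as pairs (every r above 0.1). Samples of different numbers also did so within replicates 1 and 2 and within 3 and 4, up to 0.602 for control replicate 4 with GRHL2 replicate 3, above the 0.549 of GRHL2 replicate 3 with its own number, so the pattern is partly one of replicates 1 and 2 against 3 and 4. Within a group, replicates 3 and 4 were the closest (SD of gene differences 0.072 in the control and 0.073 in the GRHL2 samples), and replicate 2 lay up to 0.17 from the others.

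The genes named are all members, Grhl2, the partners of the gene pairs, every called gene of the related lists, markers used in the check of the cells, and the 3 genes most like Jup, Dsp and Ppl. Uncalled genes of the lists that are named beside these were picked after their values were seen. The members and lists were chosen with earlier results of these data known. Alternatives were other scalings, the replicate block, sample weights, other settings of the limma fit, a low-value filter, a pseudocount and leaving out each sample. The fit was tested on simulated data with known changes. It called 90 of 100 changes of size 0.5 and 96 of 100 of size 1 with the right sign, and 11 of 18471 unchanged genes. The simulated noise was independent between samples, whereas samples with the same number deviated together in the data. Error rates under such shared deviations were not tested.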

Additional observations from a re-analysis of the deposited data

Results flagged for a closer look

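Of 76 groups of 4 values that were checked for a distant sample, 2 had one, and chance alone gives about 1 in 20 groups. Ctnnd1, the p120 catenin, was lowest of the control samples in replicate 4 at 7.14, far below the other 3 (mean of all 4 samples 7.23 ± 0.058). The share of Pkp4 in the summed plakophilin level was highest of the GRHL2 samples in replicate 3 at 53.3%, while the other 3 lay between 51.9% and 52.0%.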

How the results depend on the processing

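Jup, Pkp1 and Pkp3 were called higher in the fit reported and in all 18 alternatives, Dsp was lower in all and called in 14, and Ppl, Pkp2 and Dsg2 were called in none. With 1 sample left out, the Dsg2 difference ran from -0.068 to 0.015 and changed sign only without GRHL2 replicate 1. With the replicate block 2 members were called lower, as with sample weights (2), while leaving out 1 sample at a time gave 0 to 1. Over all genes the block gave 3396 higher and 2589 lower, against 1957 and 1104 without it, and 5 genes of the related lists lower, against 1. An equal upper quartile gave 3064 genes higher and an equal median 1119, with 8 genes of the related lists higher under the latter, and leaving out 1 sample gave 690 to 1036 genes lower over the table and 9 to 13 higher in the lists. The share of higher genes among all called was 63.9% as reported, 75.9% with an equal upper quartile, 77.0% with an equal sum and 47.1% with an equal median. The median difference of all genes was 0.0066, 0.029, 0.031 and -0.024 in these scalings. Leaving out replicate 2 of both groups, chosen after seeing the data, gave 1572 higher and 941 lower, with the same members called. The cause of these shifts was not tested. Read depth, which limits low genes such as Evpl, is unknown.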

Other observations

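The transcripts of the 9 desmosome and plakin genes, summed on the linear per-length scale, came to between 8594 and 9056 units in the control samples and between 9368 and 9738 in the GRHL2 samples, so the sums did not overlap. Jup, the gene with the highest level, takes the largest part of this sum, and the sum was not tested. Its mean log2 level, put on the linear scale, was 3484 units in the control and 4452 in the GRHL2 samples. Dsp (1407 and 1158), Pkp4 (1418 and 1224), Pkp2 and Dsg2 were lower, and Pkp1, Pkp3, Ppl and Evpl higher. The sum therefore does not show a rise shared by the 9 genes. The sums of the 3 other plakins Plec, Dst and Macf1 were between 1676 and 2174 units in the control samples and between 1458 and 1738 in the GRHL2 samples, which overlapped. Markers of the liver lineage included Afp, the fetal serum protein, which fell by 0.21 on the log2 scale (limma adjusted p = 0.0124), whereas Hnf4a differed by -0.0029 (limma adjusted p = 0.983). Sox9, a factor of bile duct precursors, differed by 0.35 and was higher in 4 of 4 pairs, and its limma adjusted p was 0.0805 unpaired and 0.000510 with the block.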
